A study of Mus musculus with 4 samples.

Results

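The genes described here are 9 cathepsin genes, Ctsl, Ctsb, Ctsh, Ctsz, Ctsc, Ctsk, Ctss, Ctsd and Ctsa, and Cst3. Cst3 encodes cystatin C, a secreted inhibitor of cysteine cathepsins. These 10 genes were chosen by symbol as rows of a table of 24421 genes, and all 10 symbols were found. The cells were 4T07, a mouse mammary carcinoma line given the strain Balb/cfC3H in the labels. Of the 4 libraries of polyadenylated RNA, 2 carry the label Six2 overexpression and 2 the label control, and RNA was taken 48 hours after plating in both groups. Six2 is a homeodomain factor that maintains nephron progenitors in the embryonic kidney. The labels do not say how the gene was introduced, whether the cells are 1 clone, or whether replicates were separate cultures, so p-values measure only how these libraries spread, and that spread may be technical.

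Cathepsins are proteases of the lysosome. Most are made as inactive precursors, carried to the lysosome on mannose 6-phosphate receptors and activated at acid pH, and tumour cells can also secrete them. Ctsl and Ctsb encode cysteine endopeptidases of broad tissue distribution, Ctsh a cysteine aminopeptidase, Ctsz a cysteine carboxypeptidase and Ctsc a dipeptidyl peptidase that activates granule proteases of leukocytes. Ctsk is the main collagenase of osteoclasts, and Ctss serves antigen presentation in myeloid cells and B cells. Ctsd encodes the aspartic protease cathepsin D. Ctsa encodes a serine carboxypeptidase that also protects lysosomal galactosidase and sialidase, so it falls under neither the cysteine nor the aspartic class. Cystatin C binds cysteine cathepsins and does not inhibit cathepsin D or cathepsin A.

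Transcription of many lysosomal genes is known to be driven by the factors of the MiT/TFE family, such as Tfeb and Tfe3, through a palindrome with the core TCACGTGA. RefSeq promoter windows on GRCm38.p6, reaching from 250 bases before the gene start to 50 after it, were matched by symbol for 8 of the 10 genes, the others being Ctsb and Ctsh. The core, which reads the same on both strands and contains the shorter motif CACGTG, was present in the windows of 2 of these 8 genes, Ctsd and Ctsa, and in 1.12% of the 27025 genes of the promoter table. CACGTG alone was present in Ctsl as well, so in 3 of 8, against 8.09% of all genes. Among the 94 genes with a window from the gene lists used here, 11.7% held the core and 24.5% held CACGTG. The extended CLEAR element was in 0 of 8 (0.37% of all genes), and TCAGGTTTC, the MEF3 site bound by Six2-related factors, searched on both strands, was also in 0 of 8 (0.511% of all genes). The matching stretches are shown 5′ to 3′ because they are what the sequences of Ctsd, Ctsa and Ctsl share; capitals mark TCACGTGA in the first 2 and CACGTG in the third. A match is a description of the letters, not of binding.
Ctsd, chr7:142387889-142387956, minus strand: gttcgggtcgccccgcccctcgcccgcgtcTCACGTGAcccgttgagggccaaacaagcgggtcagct
Ctsa, chr2:164833730-164833814, plus strand: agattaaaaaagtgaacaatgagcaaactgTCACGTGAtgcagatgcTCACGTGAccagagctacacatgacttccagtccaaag
Ctsl, chr13:64370721-64370770, minus strand: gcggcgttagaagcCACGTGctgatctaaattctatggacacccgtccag
In Ctsd the match began 99 bases before the annotated start, and a further CACGTG outside the core motif began 245 bases before it. Ctsa held 2 matches, beginning 13 bases before and 4 bases after the start in the later of its 2 RefSeq windows, and the match of Ctsl began 236 bases before the start. These starts are those of the RefSeq windows. They lie inside the wider GENCODE gene bounds given with the values, and so do the 3 stretches printed here.

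Values are RPKM, in which reads are divided by the length of the gene and the size of the library, so levels can be set beside each other between genes as far as the authors' gene lengths hold. Read totals recovered from the steps in these values were about 49910633 and 81524256 for Six2 replicates 1 and 2, and about 43110988 and 41881867 for control replicates 1 and 2. Six2 itself was at 0.0285 RPKM in Six2 replicate 1 and had no reads in the other 3 libraries, so the table does not show the overexpression, and groups are called by their labels. The epithelial keratin genes Krt8 and Krt18 were abundant in every library (389 RPKM or more), whereas the other 3 epithelial markers lay lower in both Six2 libraries than in both control libraries. Krt7 was at 0.467 and 0.634 RPKM in the Six2 libraries, against 10.8 and 8.67 RPKM in the control libraries, and was called lower (-2.79, SE 0.155, limma-trend adjusted p = 0.0397). Krt19 was at 0.802 and 0.464 RPKM in the Six2 libraries, against 8.76 and 4.26 RPKM in the control libraries, and did not pass (-2.14, limma-trend adjusted p = 0.119). The adhesion molecule gene Epcam was at 0.214 and 0.0833 RPKM in the Six2 libraries, against 0.72 and 0.683 RPKM in the control libraries. The 5 epithelial markers summed to 1664 and 998 RPKM in the Six2 libraries and 1880 and 1229 RPKM in the control libraries. The groups overlapped in this sum. All 4 tested markers had a difference below 0 (median -1.19), as did 5554 of the 10654 genes tested. Of these 4, 2 lay apart by group with Six2 lower, where 25.5% of all genes tested did so. Krt8 (-0.21, limma-trend adjusted p = 0.784) and Krt18 (-0.25, limma-trend adjusted p = 0.801) overlapped between groups. Of 12 leukocyte and macrophage markers in the table, 2 reached the tested range. One of them was Cd68, itself a lysosomal membrane gene, at 9.21 and 4.99 RPKM in the Six2 libraries and 12.4 and 7.41 RPKM in the control libraries. Adgre1, H2-Aa and Tyrobp were at 0 in all 4 libraries, and Ptprc, which encodes the pan-leukocyte antigen CD45, had at most 2 reads in a library. The summed level of the 12 markers was 12.5 and 6.74 RPKM in the Six2 libraries and 16.0 and 9.56 RPKM in the control libraries.

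The 10 genes fell into 7 that were abundant and 3 that were near or at 0. The abundant ones were tested, having at least 1 RPKM in at least 2 libraries, as were 10654 genes in all. Within every library the order by level was Ctsl, Cst3, Ctsz, Ctsh, then Ctsb and Ctsd, then Ctsa. Only Ctsb and Ctsd exchanged places, Ctsd being the higher in control replicate 1 and Ctsb in the other 3 libraries. Ctsz and Ctsh lay close in Six2 replicate 1 (314.6 and 307.5 RPKM) and further apart elsewhere. The least read of these 7 in any library was Ctsa in control replicate 2, with 10128 reads and a counting error of 0.994%, so counting error is small beside the differences between replicates.

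**Figure D1:**
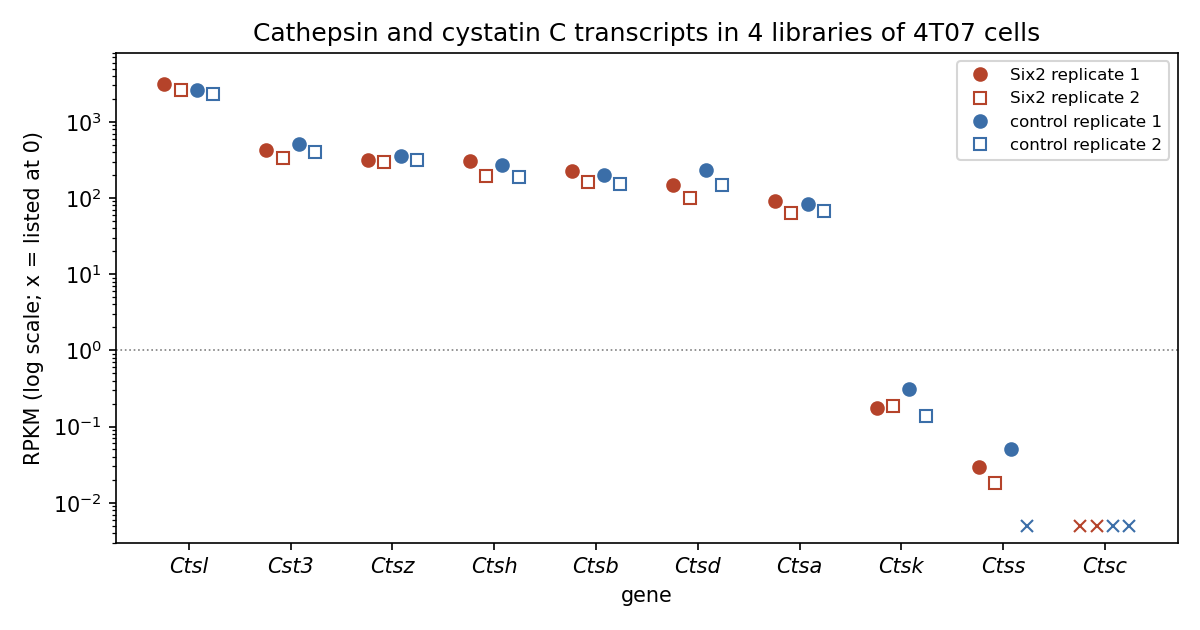
RPKM on a log axis for the 10 genes, 1 point per library; red marks the libraries labelled Six2, blue the control libraries, filled circles replicate 1 and open squares replicate 2, and crosses at the foot mark values listed at 0. Ctsl lies above 2300 RPKM in every library, 6 genes lie between 64.35 and 511.2 RPKM, and Ctsk, Ctss and Ctsc lie under the dotted line at 1 RPKM.

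Ctsl, the gene of cathepsin L (ENSMUSG00000021477.9, protein coding, on the minus strand of chromosome 13 from 64359337 to 64370890 in build GRCm38, as for the coordinates that follow), was among the 12 most abundant genes in all 4 libraries. It was at 3159 and 2596 RPKM in Six2 replicates 1 and 2, against 2587 and 2351 RPKM in control replicates 1 and 2. The Six2 libraries lay above the control libraries, but the lower Six2 value exceeded the higher control value by less than either group's spread. Cathepsin L alone made up 74.4% and 76.1% of the summed RPKM of the 9 cathepsins in the Six2 libraries and 69.4% and 73.05% in the control libraries. On the log2(RPKM + 1) scale, which barely shifts genes at these levels, Ctsl differed by 0.22 (SE 0.136, 95% interval -0.15 to 0.58). It did not pass the test fitted over all genes (limma-trend, Benjamini-Hochberg adjusted p = 0.494). The difference was 0.0738 without Six2 replicate 1 and 0.36 without Six2 replicate 2.

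Ctsb, which encodes cathepsin B (ENSMUSG00000021939.8, chromosome 14, 63122462 to 63145923, plus strand), was at 225.8 and 162.7 RPKM in the Six2 libraries and 203.3 and 153.1 RPKM in the control libraries. Its groups overlapped. Both replicates numbered 1 lay above both numbered 2, so the spread within a group exceeded the difference between groups (0.12, SE 0.227, 95% interval -0.49 to 0.73, limma-trend adjusted p = 0.839). Its annotation overlaps Fdft1, a gene on the opposite strand, at 21.7 and 18.5 RPKM in the Six2 libraries and 32.5 and 21.8 RPKM in the control libraries. The strand setting of the counting is not given, so a share of reads could belong to either gene.

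The exopeptidase genes behaved unequally between replicates. Ctsh (ENSMUSG00000032359.14, chromosome 9, 90054152 to 90076089, plus strand) was at 307.5 and 192.8 RPKM in the Six2 libraries and 267.6 and 189.9 RPKM in the control libraries. Its ratio of replicate 2 to replicate 1, 0.627 in the Six2 group and 0.71 in the control group, was lower than that of Ctsz, at 0.934 and 0.887 in the same groups. Ctsz (ENSMUSG00000016256.10, chromosome 2, 174427493 to 174439039, minus strand) was at 314.6 and 293.9 RPKM in the Six2 libraries and 350.7 and 310.9 RPKM in the control libraries. Neither group difference passed (Ctsh 0.11, SE 0.294, limma-trend adjusted p = 0.89; Ctsz -0.12, SE 0.107, adjusted p = 0.646). The 95% interval of the difference was narrower for Ctsz (-0.41 to 0.17) than for Ctsh (-0.68 to 0.90).

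Ctsd, the gene of cathepsin D (ENSMUSG00000007891.16, chromosome 7, 142375911 to 142388038, minus strand), had the largest absolute difference of the 7. It was at 149.3 and 101.3 RPKM in the Six2 libraries, against 236.1 and 146.9 RPKM in the control libraries. Six2 replicate 1 lay just above control replicate 2, so the groups overlapped, although within each replicate number the Six2 library was the lower one. The means were 125 ± 34 RPKM in the Six2 libraries and 192 ± 63.1 RPKM in the control libraries (SD, n = 2 each), a ratio of 0.654. The log2 difference of -0.59 (SE 0.309, 95% interval -1.43 to 0.24) did not pass (limma-trend adjusted p = 0.42). Without control replicate 1, the library with the highest value, it was -0.25, and without Six2 replicate 2 it was -0.32, while it was -0.94 without control replicate 2.

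Ctsa, the serine carboxypeptidase (ENSMUSG00000017760.16, chromosome 2, 164832873 to 164841032, plus strand), was at 91.1 and 64.4 RPKM in the Six2 libraries and 84.05 and 66.7 RPKM in the control libraries. The Six2 library was above the control one in replicate number 1 and below it in replicate number 2, and the mean difference was 0.03 (SE 0.219, 95% interval -0.56 to 0.62, limma-trend adjusted p = 0.959). Ctsa overlaps Pltp and Neurl2, and Ctsz overlaps Nelfcd, all on the opposite strand, with the same limit as for Ctsb.

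Cst3, the gene of the inhibitor cystatin C (ENSMUSG00000027447.6, chromosome 2, 148871722 to 148875692, minus strand), was second in level to Ctsl in every library. It was at 432.6 and 332.4 RPKM in the Six2 libraries, against 511.2 and 405.5 RPKM in the control libraries. The groups overlapped, since Six2 replicate 1 lay above control replicate 2. The differences within replicate numbers were -0.24 and -0.29 for numbers 1 and 2, and the mean difference of -0.26 (SE 0.19, 95% interval -0.77 to 0.25) did not pass (limma-trend adjusted p = 0.554). Without Six2 replicate 2 it was -0.0736 and without control replicate 1 it was -0.0964, while it was -0.45 without Six2 replicate 1 and -0.43 without control replicate 2.

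Of the 7 tested genes, then, 0 passed in either direction, where 0.113% of all genes tested passed (0.0282% higher and 0.0845% lower), and 0 of 7 had an unadjusted p under 0.05, where 17.0% of all genes tested did. A single gene, Ctsl, had all 4 libraries apart by group, with 47.4% of all genes tested being so. The median difference of the 7 was 0.03, against -0.01 for all genes tested. Within both replicate numbers the Six2 library was above the control library for Ctsl, Ctsb and Ctsh, as for 39.3% of all genes tested, and below it for Ctsd, Ctsz and Cst3, as for 43.7%. The chromosomes of the 7 genes had median differences between -0.06 and 0.09. These intervals leave room for differences of the size seen, so a p that misses the threshold does not show that the levels were equal.

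**Figure D2:**
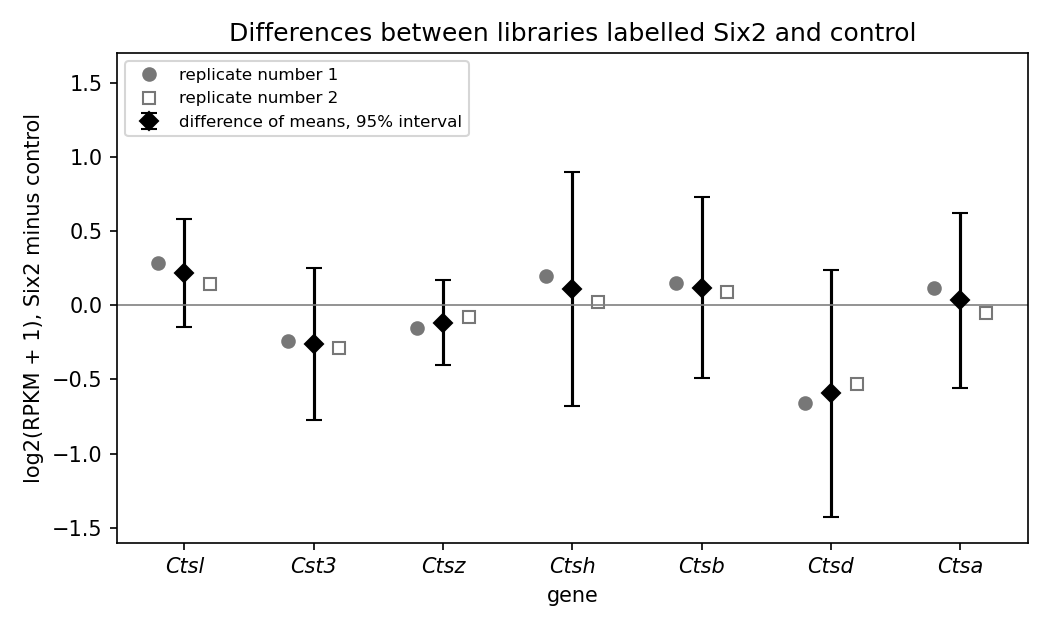
Difference between Six2 and control libraries on the log2(RPKM + 1) scale for the 7 tested genes; diamonds give the difference of group means with its 95% interval from limma-trend, circles and squares the difference within replicate numbers 1 and 2. All 7 intervals include 0, and the 2 within-number values lie on the same side of 0 for each gene except Ctsa.

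The 3 remaining genes gave few reads or none. Ctsk, next to Ctss on chromosome 3 (95499256 to 95509362, with 17423 bases between the genes), had 14 and 24 reads in the Six2 libraries and 21 and 9 reads in the control libraries. These correspond to 0.177 and 0.186 RPKM in the Six2 libraries and 0.308 and 0.136 RPKM in the control libraries, and their exact 95% Poisson intervals overlapped. The intervals, which cover counting error only, were 0.0969 to 0.297 and 0.119 to 0.277 RPKM in the Six2 libraries and 0.19 to 0.47 and 0.0621 to 0.258 RPKM in the control libraries. Ctss (95526786 to 95556403) had 2 and 2 reads in the Six2 libraries and 3 and 0 reads in the control libraries. Ctsc (chromosome 7, 88278085 to 88310888) had no reads in any library. As the limit for a count of 0, 3 reads were taken, with the exon length of 5808 bases in the GENCODE annotation. They correspond to 0.0103 and 0.00634 RPKM in Six2 replicates 1 and 2. In control replicates 1 and 2 they correspond to 0.012 and 0.0123 RPKM. The authors' length of Ctsc cannot be recovered without reads, and a shorter one would raise this limit. The authors' length was 1971 bases for Ctsl, against 6489 in GENCODE, and 1583 bases for Ctsk, against 1512. Of the osteoclast markers, Calcr was at 0 in all 4 libraries and Ocstamp, Dcstamp and Oscar stayed at 0.08 RPKM or below, whereas Mmp9, which other cells also express, was at 1.21 and 2.88 RPKM in the Six2 libraries and 1.23 and 2.01 RPKM in the control libraries. Ctsk, Ctss and Ctsc were under the tested range, so a group difference was not tested for them.

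Because a ratio of 2 genes within a library does not depend on scaling between libraries, all 21 ratios among the 7 tested genes were formed. In 11 of them the 4 libraries lay apart by group, among these 5 of the 6 that involve Ctsd and 5 of the 6 that involve Cst3. The count was 3 of 6 for each of Ctsl, Ctsb and Ctsa, 2 of 6 for Ctsh and 1 of 6 for Ctsz. Each ratio counts under both of its genes, and the 6 ratios of a gene share its values. Over all pairs of tested genes above 0 in every library, 48.8% of ratios lay apart, so the count of 11 is near the share found across the table. The ratios described next were picked after these values were seen, and 2 libraries against 2 cannot give an exact two-sided permutation p below 0.333. Cst3 was at 13.7 and 12.8 RPKM per 100 RPKM of Ctsl in the Six2 libraries, against 19.8 and 17.2 RPKM in the control libraries. Per 100 RPKM of all 7 cysteine cathepsins together, Cst3 was at 10.8 and 10.2 RPKM in the Six2 libraries, against 15.0 and 13.5 RPKM in the control libraries (exact permutation p = 0.333 for each). The amount of Cst3 transcript per cysteine cathepsin transcript was thus lower in both Six2 libraries than in both control libraries. This describes Cst3 alone, as the other 2 tested inhibitor genes, Cstb and Cst6, were higher in both Six2 libraries.

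Ctsd per 100 RPKM of Ctsl was 4.73 and 3.90 RPKM in the Six2 libraries, against 9.13 and 6.25 RPKM in the control libraries. The gap between the group means, -3.37 RPKM, was -1.93 RPKM without control replicate 1. Ctsd per 100 RPKM of Ctsb was 66.1 and 62.2 RPKM in the Six2 libraries, against 116 and 96.0 RPKM in the control libraries (exact permutation p = 0.333 for both ratios). So cathepsin D transcript was below cathepsin B transcript in both Six2 libraries and close to or above it in the control libraries. Ctsb per 100 RPKM of Ctsl did not separate the groups, with 7.15 and 6.27 RPKM in the Six2 libraries and 7.86 and 6.51 RPKM in the control libraries. The summed RPKM of the 9 cathepsins was 4247 and 3411 in the Six2 libraries and 3729 and 3219 in the control libraries, with the groups overlapping.

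**Figure D3:**
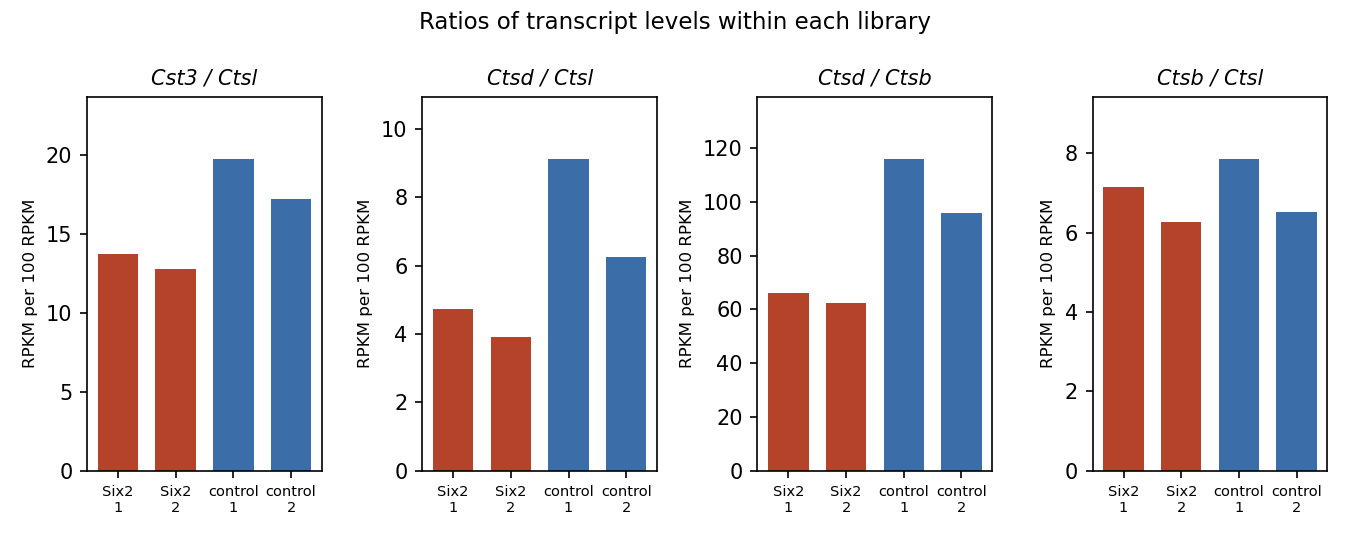
RPKM of 1 gene per 100 RPKM of another within each of the 4 libraries, Six2 in red and control in blue; each panel has its own axis from 0. Cst3 to Ctsl, Ctsd to Ctsl and Ctsd to Ctsb are lower in both Six2 libraries than in both control libraries, and Ctsb to Ctsl is not.

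The replicate number marked these genes in both groups. All 7 tested genes were higher in replicate 1 than in replicate 2 in the Six2 group and in the control group, where 43.2% of all genes tested were so and 39.7% went the other way in both groups. The log2 difference of replicate 2 minus replicate 1, averaged over the groups, had a median of -0.41 for the 7 genes and -0.01 for all genes tested. Ctsh and Ctsd had the largest shifts, Ctsh with -0.67 in the Six2 group and -0.49 in the control group, and Ctsd with -0.56 and -0.68 in the same groups. Ctsz and Ctsl had the smallest, with -0.10 and -0.28 in the Six2 group and -0.17 and -0.14 in the control group. The labels give no meaning to the number beyond replicate, and what it stands for was not tested. Of the 4 tested epithelial markers, whose group differences are given above, 3 were likewise higher in replicate 1 in both groups. The summed leukocyte markers, most of them Cd68, were higher in replicate 1 in both groups and, within each replicate number, lower in the Six2 library, and their part in these levels was not tested.

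Other lysosomal genes were read from lists fixed alongside the 10 genes. Of 37 other hydrolases and cofactors, all tested, 0 passed in either direction; 2 lay apart by group with Six2 higher and 6 with Six2 lower, where 21.9% and 25.5% of all genes tested did so. Their median difference was -0.02. The most abundant were Psap, the precursor of the saposins that help hydrolases to reach lipids, and Npc2, a cholesterol carrier. Psap was at 229.4 and 174.8 RPKM in the Six2 libraries and 250.9 and 198.8 RPKM in the control libraries (-0.16, SE 0.193, limma-trend adjusted p = 0.741). Npc2 was at 130.2 and 102.0 RPKM in the Six2 libraries and 102.7 and 80.4 RPKM in the control libraries (0.34, SE 0.187, limma-trend adjusted p = 0.444). With chromosome medians removed the difference of Npc2 was 0.0923. Lipa, the lysosomal acid lipase, had the lowest difference of the list, -0.59 (SE 0.256, limma-trend adjusted p = 0.346), with 6.93 and 4.57 RPKM in the Six2 libraries and 10.8 and 7.50 RPKM in the control libraries. These hydrolases shared the replicate pattern, 32 of 37 being higher in replicate 1 in both groups and 4 in replicate 2, with a median replicate difference of -0.32.

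Among 18 lysosomal membrane proteins 0 passed, and 4 lay apart with Six2 higher and 1 lower, where 21.9% and 25.5% of all genes tested did so, and the median difference was 0.05. Cd63, a tetraspanin, was at 531.5 and 567.6 RPKM in the Six2 libraries and 509.2 and 549.2 RPKM in the control libraries. Unlike the cathepsins it was higher in replicate 2 in both groups. Lamp1, a major glycoprotein of the lysosomal membrane, was at 242.3 and 183.8 RPKM in the Six2 libraries and 215.1 and 181.0 RPKM in the control libraries. Higher values in replicate 1 in both groups were found for 14 of the 18 genes.

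Of 17 subunits and accessory proteins of the V-ATPase, the pump that acidifies the lysosome, 0 passed and the median difference was 0.10. Of the 17, 5 lay apart with Six2 higher and 1 lower, against the same 21.9% and 25.5% of all genes tested. Atp6v1h was at 28.1 and 26.4 RPKM in the Six2 libraries, against 16.3 and 16.8 RPKM in the control libraries. Its replicates were close, and its difference of 0.68 (SE 0.0959) had the smallest adjusted p of the lysosomal lists (limma-trend adjusted p = 0.105). It lies on chromosome 1, whose tested genes had a median difference of 0.32, and with chromosome medians removed its difference was 0.36. Atp6v1g1 and Atp6v1f had the highest means over the 4 libraries. Atp6v1g1 was at 123.8 and 105.7 RPKM in the Six2 libraries and 119.3 and 105.4 RPKM in the control libraries. Atp6v1f was at 104.5 and 89.7 RPKM in the Six2 libraries and 137.3 and 112.5 RPKM in the control libraries, with the groups apart (-0.36, SE 0.148, limma-trend adjusted p = 0.333).

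In the list of sorting to lysosomes 12 of 13 genes were tested and 0 passed, with a median difference of 0.06. Of the 12, 2 lay apart with Six2 higher and 3 lower, where 21.9% and 25.5% of all genes tested did so. Of the mannose 6-phosphate receptors, Igf2r was at 76.9 and 63.8 RPKM in the Six2 libraries and 85.9 and 78.6 RPKM in the control libraries. M6pr was at 69.03 and 72.6 RPKM in the Six2 libraries and 74.0 and 81.3 RPKM in the control libraries. Both lay apart with Six2 lower, and neither passed (limma-trend adjusted p = 0.459 for Igf2r and 0.578 for M6pr). Their differences of -0.23 and -0.13 were -0.0194 and -0.0417 with chromosome medians removed. Sorl1, a sorting receptor, did so at lower levels, with 2.56 and 1.48 RPKM in the Six2 libraries and 4.29 and 2.73 RPKM in the control libraries (-0.58, SE 0.27, limma-trend adjusted p = 0.373). Of the MiT/TFE factors, Tfe3 was at 22.1 and 21.3 RPKM in the Six2 libraries and 22.5 and 22.5 RPKM in the control libraries, and Tfeb at 4.42 and 3.77 RPKM in the Six2 libraries and 5.56 and 4.29 RPKM in the control libraries. Of the 3 tested members 0 passed, and 3 of 3 had a difference below 0, as did 5554 of the 10654 genes tested. Once chromosome medians were removed, Tfe3 was at 0.0117 and Tfeb at -0.00505.

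Most other cathepsins gave few reads or none. Of 15 further cathepsins and related proteases, 12 were under the tested range and 8 of these had no reads in any library, among them Ctsf and the placental cathepsin genes Ctsj, Ctsm, Ctsq and Ctsr. Lgmn, the asparaginyl endopeptidase that processes cathepsins, was at 38.2 and 29.5 RPKM in the Six2 libraries and 46.6 and 37.5 RPKM in the control libraries (-0.31, SE 0.182, limma-trend adjusted p = 0.473). With chromosome medians removed its difference was -0.55. Ctso was at 3.62 and 2.36 RPKM in the Six2 libraries and 3.43 and 1.97 RPKM in the control libraries.

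Of the other cystatins and stefins, 17 of 19 symbols were in the table and 2 were tested, and both lay apart with Six2 higher, as did 21.9% of all genes tested. Cstb, the cytosolic inhibitor stefin B, was at 213.2 and 211.7 RPKM in the Six2 libraries and 192.6 and 178.0 RPKM in the control libraries (0.20, SE 0.0919, limma-trend adjusted p = 0.374). Cst6, which encodes the secreted cystatin E/M that inhibits cathepsin L and legumain, was at 7.64 and 6.52 RPKM in the Six2 libraries, against 4.10 and 4.22 RPKM in the control libraries. Its difference of 0.64 (SE 0.122) had an unadjusted p of 0.0049 and did not pass over all genes (limma-trend adjusted p = 0.144). Cst3, by comparison, was below the control value within both replicate numbers. Cst3 exceeded Cst6 in every library, and it exceeded Cstb in every library too.

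**Figure D4:**
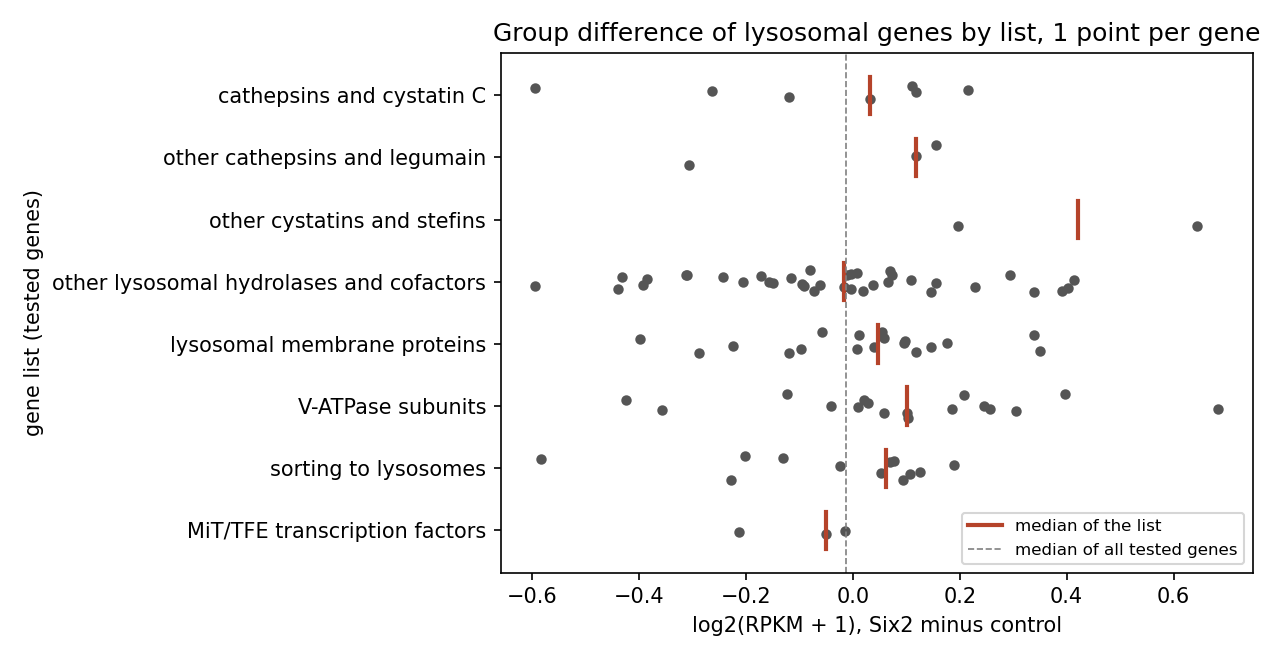
Group difference, Six2 minus control on the log2(RPKM + 1) scale, for every tested gene of the cathepsin set and of 7 lists of lysosomal genes and inhibitors, 1 point per gene with red bars for list medians and a dashed line for the median of all tested genes. Points of every list lie between -0.6 and 0.7, and 0 of them passed the test over all genes.

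**Figure D5:**
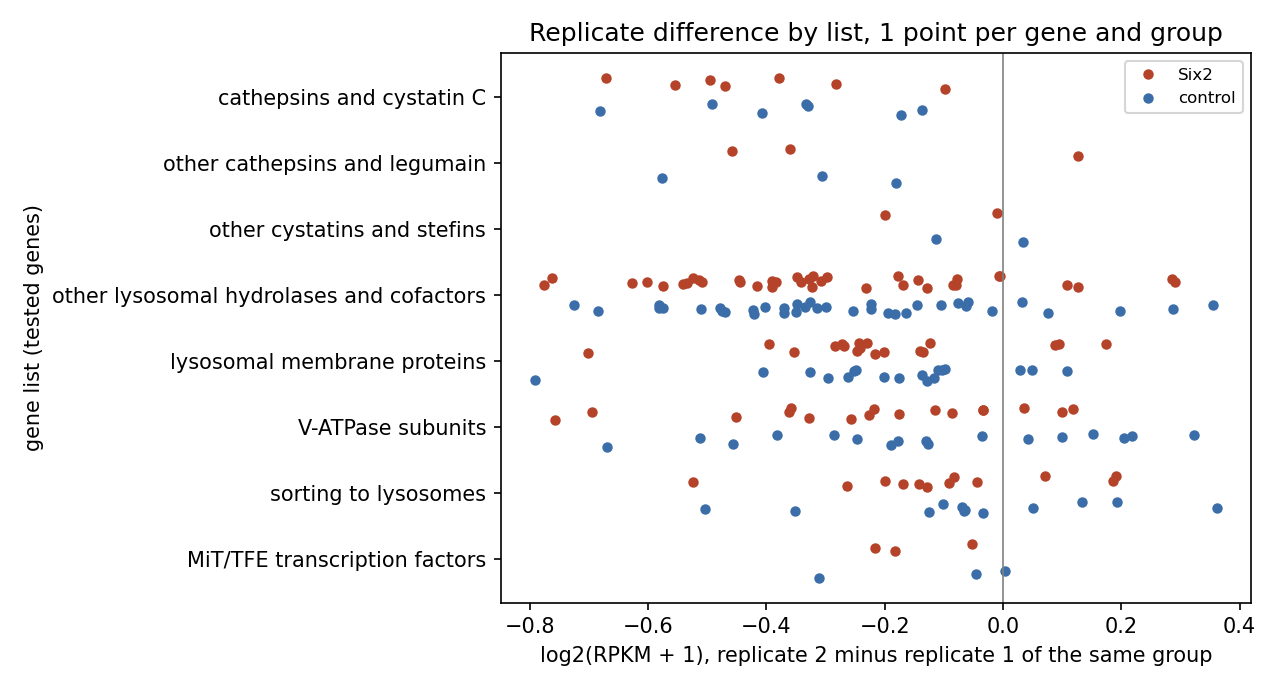
Replicate 2 minus replicate 1 within the Six2 group (red) and the control group (blue) on the log2(RPKM + 1) scale, 1 point per tested gene and group. All points of the cathepsin set lie below 0 in both groups, 32 of 37 hydrolases do too, and 8 of 12 sorting genes do.

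The genes most alike in pattern to Ctsl and Ctsd were found as those with the smallest Euclidean distance of centred log2(RPKM + 1) over the 4 libraries, among 6056 genes at a mean of at least 10 RPKM. Nearest to Ctsl were Pcgf2 (distance 0.00753), Hint2 (0.0308) and Sufu (0.0328). Near to Ctsd were Litaf (0.0417) and Klf9 (0.0429). Litaf was at 37.8 and 25.5 RPKM in the Six2 libraries and 59.2 and 38.1 RPKM in the control libraries, and like Ctsd it did not pass (limma-trend adjusted p = 0.398). With 4 libraries, such likeness describes these libraries only.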

How the data were processed

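The authors deposited 1 table of RPKM (reads normalised to gene length and library size) with a column per library, per the file headers. Per the submitters' processing notes, TopHat2 2.1.1, Bowtie2, SAMtools 1.5, Picard 2.9.4 and HTSeq 0.8.0 were used with builds GRCm38 and mm10. The annotation, gene lengths, strand setting and treatment of shared reads remain not given in the sources used here. Libraries came from a stranded mRNA kit, per the labels' protocols. No other scaling between libraries is stated. A gene's values are whole multiples of 1 read, and for 14459 of 14459 genes above 0 in 3 or more libraries these gave whole reads within 0.001 reads. A factor shared by reads and length cannot be seen this way.

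Genes reaching 1 RPKM in 2 or more libraries were tested with limma 3.58.1 in R 4.3.3 on log2(RPKM + 1), with a variance trend, two-sided, Benjamini-Hochberg adjustment over 10654 genes and a threshold of 0.05. The test was also run on simulated reads. These held no shift shared by replicate number, so that run does not vouch for the test in these libraries. Coordinates are from GENCODE on GRCm38 and promoters from RefSeq on GRCm38.p6. The 10 genes, the lists and the tests were chosen with earlier results of these data known. The naming rule took all 10 genes and, per list of lysosomal genes and inhibitors, called genes or the 2 most abundant, plus genes with the 4 libraries apart and a difference of at least 0.5. Cell type markers and overlapping genes were named as checks, and 1 gene that the rule would name is not reported here. Alternatives were a pseudocount of 0.1, no filter, relative log expression factors, voom, chromosome medians removed, each library left out and the replicate number as a block.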

Additional observations from a re-analysis of the deposited data

How the results depend on the processing

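Over all genes, the calls of 3 higher and 9 lower became 0 and 0 with no filter on low values (smallest limma-trend adjusted p = 0.0519, with an unadjusted p under 0.05 for 2503 genes), 24 lower with relative log expression factors, and 2133 higher and 2506 lower with the replicate number as a block. With each library left out they ranged from 2 to 18 higher and from 9 to 50 lower. The 7 tested cathepsin and cystatin genes gave 70 values under 10 alternatives, of which 62 kept direction and side of the threshold. Outside the block and with all 4 libraries kept, adjusted p for them ranged from 0.398 to 0.992, by limma-trend or, for 1 alternative, limma with voom. The pairing by number rests on 2 pairs, whose deviations correlated at r = 0.818 across genes, and the labels do not say that a number marks a shared culture. With the replicate block, Ctsd (-0.59, limma adjusted p = 0.000241) and Cst3 (-0.26, adjusted p = 0.00756) passed, as did 43.5% of all genes tested. With single libraries left out, the differences of the members that kept direction ranged from 0.07 to 0.36 for Ctsl, -0.94 to -0.25 for Ctsd, -0.21 to -0.03 for Ctsz and -0.45 to -0.07 for Cst3. Direction reversed only with single libraries left out for Ctsb (-0.12 to 0.35), Ctsa (-0.22 to 0.28), Ctsh (-0.22 to 0.45), Psap (-0.35 to 0.0383), Lamp1 (-0.10 to 0.29) and Atp6v1g1 (-0.0846 to 0.14). Ctso reversed there too (-0.17 to 0.41) and with chromosome medians removed (-0.10), as did Tfe3 (0.0117), while Cd63 was at 0 there, being the median gene of its chromosome. For the other reversals the cause was not tested.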
